A study of Mus musculus with 18 samples.

Results

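Bulge cells that had divided during a doxycycline chase were compared between the ages PD25 and PD21 (postnatal days) in mouse skin. The comparison was defined by the array labels: 3 arrays of divided bulge from mice chased from PD22 to PD25 were set against 3 arrays of divided bulge from mice chased from PD18 to PD21. These 6 arrays are a subset of 18, and the other 12 hold non-bulge cells and undivided bulge cells of the same mice. Only autosomal genes were considered, which left 11201 of the 11569 genes tested, after a filter on dim probe sets. The labels alone chose the arrays.

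All mice carried K5tTA and pTRE-H2B-GFP and came from FvB and CD1 parents. The Keratin 5 promoter drives the transactivator in skin epithelium, so the histone label reports on epithelial cells that had this promoter active before the chase. Doxycycline at 1 g per kg of food switched off H2B-GFP, and the label was then diluted 2-fold with every division. Every group received doxycycline, so no group without it was available for comparison. Divided bulge had 1 to 2 divisions and undivided bulge had 0, while non-bulge was not separated by division. Cells were sorted on surface CD34, α6-integrin and GFP, with gates that no source used here states. Each group had 3 mice with 1 array each, the mice differed between the ages, and the 3 fractions of a mouse share the animal. With 3 mice a group, the number of arrays limits the precision.

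The bulge is the niche of the hair follicle that houses its stem cells. In the resting follicle these cells are held quiescent, with BMP signals and secreted Wnt inhibitors among the restraining factors, and new growth begins when Wnt signalling rises in the hair germ just below. CD34 is a surface antigen of mouse bulge cells, and LHX2, SOX9, TCF3 (gene Tcf7l1), NFATC1 and TBX1 are transcription regulators with known roles there. The design text places the ages in different phases of the hair cycle.

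Levels are given as log2(signal + 16), where signal is the deposited intensity, and a difference of 1 is 2-fold in signal + 16. The constant 16 sets the floor of the scale, and changes of genes with low levels depend on it. A gene passed at a Benjamini-Hochberg adjusted p of 0.05 in limma, adjusted over all genes tested. Levels of different genes come from different probe sets and are not compared with each other.

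The genes whose levels moved most included Wnt5b and Wnt3, a pair of Wnt ligands with opposite directions. The 250 bases before their RefSeq start sites (GRCm38.p6) are shown because these genes mark the comparison. Those of Il33, which fell by a similar amount, are shown beside them. Capitals mark a match to CTTTGA (the TCF/LEF core) or TAATTA (a LIM homeodomain core). TGTGGT (the RUNX core) and TTTGGCGC (an E2F site) were searched too, all on both strands, and each promoter shown holds at most 1 match. Wnt5b has 3 start sites in the table, and the one at chr6:119449387-119449636 on the minus strand holds a match beginning 71 bases before the start, while the other 2 hold 0. Wnt3 lies at chr11:103773925-103774174 on the plus strand and holds none of the 4. The second start of Il33, at chr19:29945540-29945789 on the plus strand, holds a match that begins 177 bases before it, while its first start holds 0. Promoters of Wnt9a, Wnt4, Wnt16, Wnt10b, Lhx2, Tbx1, Cd34, Tcf7l1, Fosb and Bmp4 were searched too and held 0 matches. Among these genes only Wnt5b and Il33 thus held a match, and they are printed at that start alone. Wnt3 is printed at its only start.
Wnt5b: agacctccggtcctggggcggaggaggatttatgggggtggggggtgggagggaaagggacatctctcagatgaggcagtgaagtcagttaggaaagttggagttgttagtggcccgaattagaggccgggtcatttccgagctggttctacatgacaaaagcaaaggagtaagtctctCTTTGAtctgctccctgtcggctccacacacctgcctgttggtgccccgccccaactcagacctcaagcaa
Wnt3: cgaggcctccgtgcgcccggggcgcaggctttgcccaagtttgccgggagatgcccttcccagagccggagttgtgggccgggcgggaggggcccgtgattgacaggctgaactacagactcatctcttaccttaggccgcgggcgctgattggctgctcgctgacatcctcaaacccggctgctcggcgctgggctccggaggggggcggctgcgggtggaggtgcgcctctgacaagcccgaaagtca
Il33: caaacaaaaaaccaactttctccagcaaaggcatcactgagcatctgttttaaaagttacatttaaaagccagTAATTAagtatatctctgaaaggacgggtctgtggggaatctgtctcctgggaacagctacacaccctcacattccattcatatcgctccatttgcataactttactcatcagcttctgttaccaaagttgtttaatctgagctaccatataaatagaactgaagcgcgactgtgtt

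RefSeq promoters were matched for 368 of the 486 genes that rose and 292 of the 385 that fell. CTTTGA was present in 8.85% of promoters of risen genes, 11.47% of fallen genes and 10.07% of all autosomal genes tested. For TAATTA the shares were 2.47%, 2.24% and 2.24%, and for TGTGGT 8.64%, 11.22% and 10.51%. TTTGGCGC was found in 0.41%, 1.0% and 0.79%. Over all 32851 promoters of the table the shares were 13.83% for CTTTGA, 4.84% for TAATTA, 14.05% for TGTGGT and 0.42% for TTTGGCGC. A match is a description of the letters and not a binding site.

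Between PD21 and PD25, 871 autosomal genes changed in divided bulge, of which 486 rose and 385 fell. That is 7.78% of the genes tested, 4.34% upward and 3.44% downward, and the median log2 fold change over all of them was -0.0047. Of the risen genes 224 rose by at least 4-fold, and 130 of the fallen genes fell by as much. In undivided bulge of the same mice 7 genes passed (0.0625%), and in non-bulge 0 passed (0%), with 486 at an unadjusted p under 0.05 in limma. The arrays of the ages did not overlap for 21.2% of autosomal genes in divided bulge. Arrays fell into 2 sets of 9 by their control probe sets, with PD21 mice 1 and 2 and PD25 mouse 1 in the one and the other 3 mice in the other. With the set as a term in the fit 1060 genes passed, and within the sets 570 and 54 did, each with a lone array of an age that was assumed to vary like the others. Without PD21 mouse 1 the count was 508, without PD21 mouse 2 it was 505, and without PD25 mouse 3 it was 524.

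The risen and fallen genes had a common arrangement across fractions. Over the genes that rose, the median of the group means was 8.39 in divided bulge at PD21, where non-bulge had 8.03, and 10.31 at PD25, where undivided bulge had 10.27. The genes that fell had a median of 10.55 at PD21, where non-bulge had 10.51 and undivided bulge 8.89. At PD25 their median was 8.80, where undivided bulge had 8.37 and non-bulge 10.40. Their median log2 fold change was -1.72 in divided bulge, -0.42 in undivided bulge and -0.16 in non-bulge. For the risen genes it was 1.94, 0.01 and 0.06. These genes were chosen by this contrast, so the divided bulge medians are a description. At the level of single genes, the age effect in divided bulge differed from that in undivided bulge for 132 genes (1.18%) and from that in non-bulge for 182 (1.62%). With each animal as a block, since the fractions of an age share mice, these counts were 487 and 437. Among the genes that rose, 89 differed from undivided bulge, 96 from non-bulge and 51 from both, and among those that fell the numbers were 34, 78 and 19. Both tests contain the divided bulge effect by which these genes were chosen. High shares follow from that choice, and the numbers are a description.

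**Figure D1:**
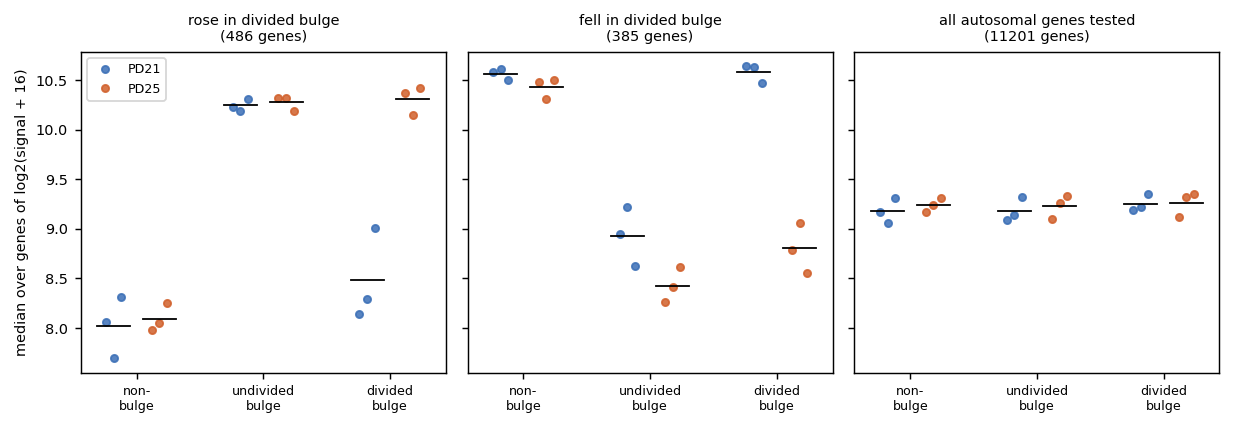
Median level, as log2(signal + 16), over the 486 genes that rose, the 385 that fell and all 11201 autosomal genes tested, in each array (points) with the mean of 3 arrays (lines), for 3 fractions and 2 ages. In the risen genes the PD21 divided arrays lie at 8.14, 8.29 and 9.01 and the PD25 ones between 10.14 and 10.42, while the medians over all genes stay between 9.06 and 9.35.

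Of 32 tested bulge stem cell genes, 18 rose and 0 fell, with a median log2 fold change of 1.43 beside -0.0047 over all autosomal genes. Cd34, the gene of the antigen used in the sort, was at 9.19, 7.91 and 9.68 in the PD21 mice and at 11.74, 11.56 and 12.87 in the PD25 mice. All 3 PD25 arrays were higher, and the difference was 3.13 ± 0.46 (SE, n = 3 and 3, adjusted p = 0.000109). In non-bulge Cd34 lay between 4.10 and 5.55 and in undivided bulge between 12.24 and 13.12, so the PD21 divided fraction held a level between those of the other fractions. Itga6, which encodes the other antigen, was at 12.80 to 13.34 at PD21 and 12.82 to 13.27 at PD25, and its difference of -0.12 ± 0.29 did not pass. In bulk samples of this kind, fewer cells of a type and less RNA per cell cannot be told apart.

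Among transcription regulators of bulge cells, Lhx2 (a LIM homeodomain factor) was at 9.84, 9.21 and 9.87 at PD21 and at 12.15, 11.74 and 12.42 at PD25. The difference was 2.47 ± 0.25 (SE, adjusted p = 2.17e-06), and it passed in each of the 21 alternative settings. Sox9, needed for the bulge lineage, was at 11.07, 10.99 and 10.64 and then at 13.17, 12.57 and 12.84. Tbx1, a T-box factor, was at 9.36, 8.66 and 10.02 and then at 12.80, 12.41 and 11.93. Neither gene's ages overlapped, and the increases were 1.96 ± 0.27 for Sox9 and 3.03 ± 0.37 for Tbx1. Tcf7l1, a TCF that represses Wnt targets in the absence of a signal, was at 5.74, 7.21 and 6.90 and then at 8.95, 9.40 and 8.89. Its increase of 2.46 ± 0.59 (adjusted p = 0.00946) did not pass without PD21 mouse 1 (adjusted p = 0.0760) or within either array set. Runx1 and Nfatc1 rose less, by 1.65 ± 0.27 and 1.46 ± 0.34. Nfatc1 passed in 16 of 21 settings and did not pass with the probe set of highest variance.

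For Lhx2 the age effect was 2.47 ± 0.35 larger in divided than in undivided bulge (adjusted p = 0.00222) and 2.55 ± 0.35 larger than in non-bulge (adjusted p = 0.00151). For Sox9 these differences were 2.19 ± 0.38 and 1.83 ± 0.38, and for Cd34 they were 3.47 ± 0.65 and 2.67 ± 0.65. In undivided bulge itself, Lhx2 had a mean of 11.79 at both ages.

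Bulge genes that did not pass included Krt15 and Col17a1. Krt15, a keratin of the bulge and of basal cells, was at 15.70, 15.39 and 14.35 at PD21 and at 15.83, 14.54 and 14.86 at PD25, and the ages overlapped. The keratins of basal epithelium, Krt5 and Krt14, differed by -0.16 ± 0.46 and -0.29 ± 0.44. These keratin differences changed sign when arrays were left out or the array set was fitted.

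**Figure D2:**
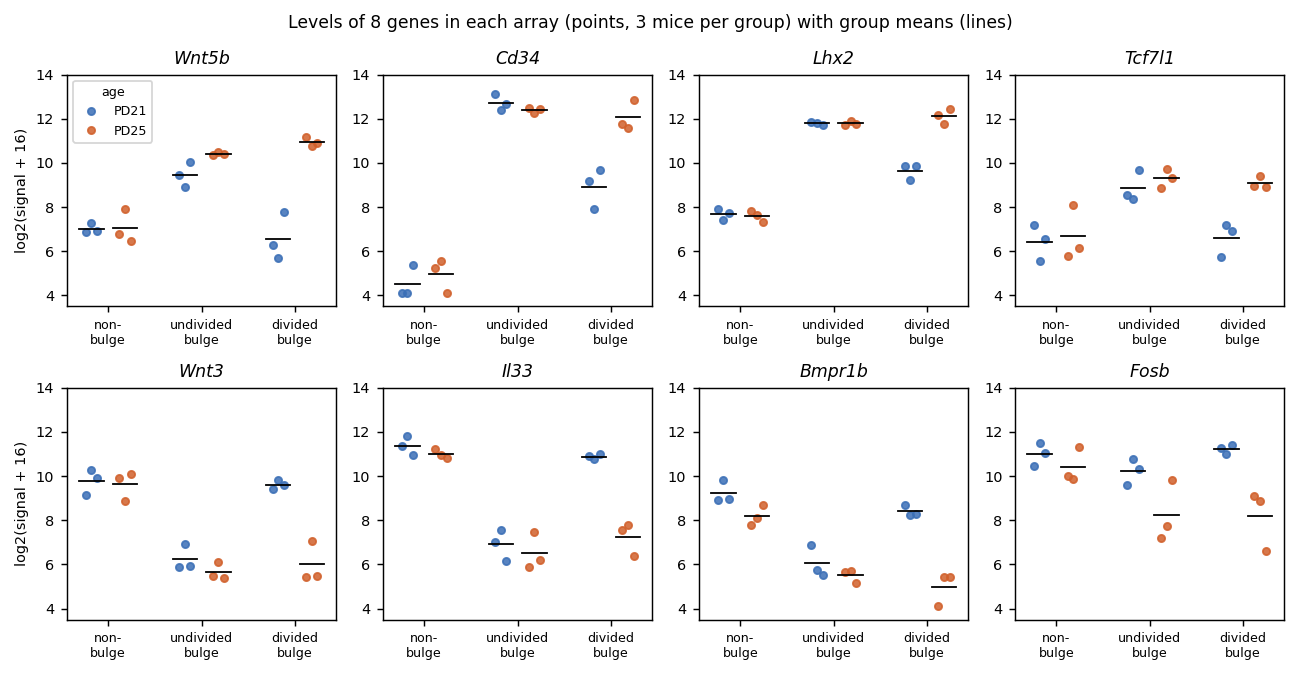
Level, as log2(signal + 16), of 8 genes in each array (points) with group means (lines), for non-bulge, undivided bulge and divided bulge at PD21 and PD25. In divided bulge Wnt5b, Cd34, Lhx2 and Tcf7l1 were higher and Wnt3, Il33, Bmpr1b and Fosb lower in all 3 PD25 arrays than in any PD21 array.

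Wnt ligands moved in opposite directions. Of 16 tested genes on the ligand and secretion list, 2 rose and 6 fell. All 8 that passed are described here, those beyond the 4 largest changes being chosen with their values seen. Wnt5b, a ligand best known for signalling without β-catenin, was at 6.27, 5.68 and 7.76 at PD21 and at 11.19, 10.77 and 10.90 at PD25. The PD25 mice varied little and lay far above every PD21 mouse. The difference was 4.39 ± 0.47 (SE, adjusted p = 3.23e-06), or 20.9-fold in signal + 16, the largest increase among autosomal genes that passed. A second probe set of Wnt5b gave 2.95, and over the 21 alternative settings the value lay between 3.08 and 5.22. In undivided bulge Wnt5b had means of 9.46 and 10.41 and in non-bulge of 7.02 and 7.05, and the divided bulge effect exceeded these by 3.43 ± 0.66 (adjusted p = 0.0100) and 4.36 ± 0.66 (adjusted p = 0.00151).

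Wnt3, a ligand that signals through β-catenin, was at 9.41, 9.82 and 9.58 at PD21 and at 5.44, 7.07 and 5.50 at PD25. It fell by 3.60 on the log2 scale (SE 0.52, adjusted p = 8.01e-05), with the 3 PD25 arrays below all PD21 arrays. In undivided bulge Wnt3 was already at a mean of 6.25 at PD21 and was at 5.67 at PD25, and in non-bulge it was at 9.79 and 9.62. The divided bulge effect was below that in undivided bulge by a difference of -3.03 ± 0.73 (adjusted p = 0.0375) and below that in non-bulge by -3.44 ± 0.73 (adjusted p = 0.0168). Within the array set that holds a single PD21 mouse, the change was -3.30 with an adjusted p of 0.0564. Its only probe set, and the main one of Wnt5b, carry the suffix that Affymetrix gives to sets whose probes may bind more than 1 transcript.

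Other ligands followed on either side. Wnt9a was at 4.57, 4.84 and 5.61 at PD21 and at 8.31, 6.68 and 8.73 at PD25, an increase of 2.90 ± 0.63 (adjusted p = 0.00440) that did not pass within 1 array set. Wnt10b, a ligand of the hair germ at growth onset, was at 6.47, 7.38 and 6.76 and then at 4.71, 4.85 and 4.39. The ages did not overlap, and the change of -2.22 ± 0.64 passed in 11 of 20 alternative settings. Wnt4, Wnt7b and Wnt16 fell by 1.30, 1.74 and 2.19 on the log2 scale, with adjusted p values of 0.0153, 0.0314 and 0.0364. Wls, which carries Wnt proteins to the cell surface, fell by 0.85. Among the 8 that did not pass, Wnt7a differed by -1.74 ± 0.59 without overlap of the ages, and Wnt5a, Wnt10a and Wnt11 differed by -0.26, -0.50 and -0.0015.

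Receptors on the Wnt list rose more often than they fell, with 6 up and 2 down of 19. Fzd2 was at 10.83, 10.32 and 11.28 at PD21 and at 13.84, 12.87 and 13.34 at PD25, a difference of 2.54 ± 0.35 that passed in all 21 settings. The frizzleds Fzd3, Fzd1 and Fzd7 rose by 2.17, 1.59 and 1.40. Fzd3 passed in 19 of 21 settings and did not pass with the probe set of highest variance. Lgr5, an R-spondin receptor that marks lower bulge and germ cells, was at 6.15, 5.27 and 6.85 and then at 8.69, 9.26 and 8.85, and its homologue Lgr4 rose by 0.90. The age effect on Lgr5 was larger in divided than in undivided bulge by 3.80 ± 0.76, where its mean went from 8.53 to 7.57. Its difference from non-bulge of 2.51 did not pass (adjusted p = 0.106). Fzd10 and Lrp4, the latter a co-receptor that binds Wnt inhibitors, fell by 2.22 and 1.88. Lrp4 was also among the 7 genes that passed in undivided bulge, with -1.57 ± 0.25, and a second Fzd10 probe set gave 0.08.

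Among secreted inhibitors Sfrp1, which binds Wnt proteins, was at 10.63, 11.19 and 11.52 and then at 13.53, 13.25 and 13.51, an increase of 2.32 ± 0.32. Dkk3 was at 10.07, 9.22 and 11.63 and then at 13.40, 12.90 and 13.30, an increase of 2.89 ± 0.43. Apcdd1, a membrane inhibitor of Wnt signalling, fell by 1.61. Thus 2 of 7 tested inhibitors rose and 1 fell. Of 21 effectors and targets 2 rose, Tcf7l1 and Tcf7l2 (1.30 ± 0.26), and 0 fell. Tcf7l2 did not pass with the probe set of highest variance, and its lowest value over the settings was 0.70. Axin2, a direct target used as a readout of β-catenin signalling, was at 10.98, 10.997 and 11.28 and then at 10.05, 9.90 and 10.92, a difference of -0.80 ± 0.28 that did not pass (adjusted p = 0.0923). The targets Lef1, Ccnd1 and Myc differed by 0.77, 0.31 and 0.07 and did not pass either.

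**Figure D3:**
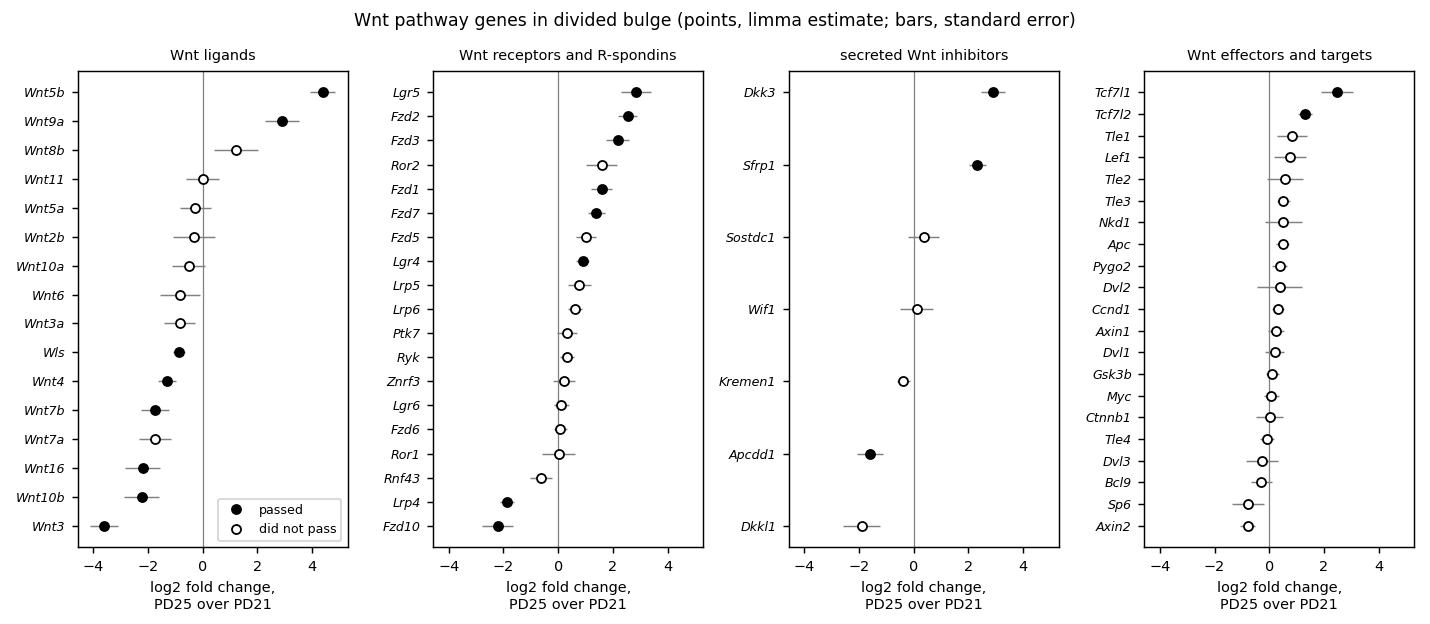
Log2 fold change in divided bulge, PD25 over PD21, for the tested members of 4 Wnt lists (points, limma estimates, filled where the gene passed; bars, standard errors). Wnt5b at 4.39 and Wnt3 at -3.60 are the ends of the ligand panel, 6 of 19 receptors rose, and Axin2 at -0.80 is open.

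In the BMP and TGF-β system Grem1, Fstl1, Ltbp1, Ltbp3 and Inhbb rose and Bmp4 fell. Grem1, a secreted BMP antagonist, was at 9.34, 8.17 and 9.90 and then at 11.16, 11.54 and 11.28, an increase of 2.19 ± 0.36 (adjusted p = 0.000356). Fstl1, a follistatin-like protein, rose by 2.59 ± 0.48, and Ltbp1, which stores latent TGF-β in the matrix, by 1.88 ± 0.42. Bmp4 was at 9.13, 9.69 and 9.01 and then at 5.79, 7.74 and 6.79. All PD25 arrays of Bmp4 were lower, and the change was -2.50 ± 0.49 (adjusted p = 0.00164). Altogether 5 of 20 ligands, antagonists and binding proteins rose and 1 fell. Bmp6, a ligand of the bulge list, differed by 2.02 and did not pass.

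Among receptors and readouts, 4 of 25 rose and 2 fell. Bmpr1b, a type I BMP receptor, was at 8.71, 8.24 and 8.29 at PD21 and at 4.11, 5.44 and 5.45 at PD25. The groups were far apart, with a change of -3.41 ± 0.53 (adjusted p = 0.000203), although its 3 probe sets gave changes from -3.41 to -0.69. Bmpr1a, the widely expressed receptor, differed by -0.16. Smad7, an inhibitor induced by the pathway, rose by 2.86 ± 0.78, and Id3 and Id2, direct BMP targets, by 1.94 ± 0.43 and 1.33 ± 0.32. The Smad7 change passed in 13 of 21 settings. Id1 differed by 1.04 and did not pass. Tgfbr1 rose by 1.51 and Tgfbr3 fell by 1.73.

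Of 21 collagens 7 rose and 0 fell, with a median of 0.81. Col5a2 was at 6.00, 4.79 and 7.39 and then at 10.66, 9.68 and 8.99, an increase of 3.72 ± 0.63 (adjusted p = 0.000464). Its ages were well separated, and the age effect exceeded that in undivided bulge by 3.94 ± 0.90 (adjusted p = 0.0264). The difference from non-bulge of 2.87 did not pass (adjusted p = 0.119), but did with each animal as a block (adjusted p = 0.0103). Col8a2, Col4a4 and Col6a1 rose by 2.67, 2.56 and 2.09 (another Col4a4 probe set gave 0.72), while Col1a1, Col1a2 and Col3a1, the main fibrillar collagens of dermis, differed by 0.94, 0.81 and 0.53 and did not pass. Col17a1, a hemidesmosome collagen, differed by 0.11.

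Of 25 proteoglycans and matricellular proteins, 6 rose and 2 fell. Gpc6, a glypican, was at 4.20, 6.48 and 8.43 at PD21 and at 10.01, 9.60 and 10.63 at PD25, so its PD21 mice were widely spread. The increase was 3.71 ± 0.80 (adjusted p = 0.00420), and its 4 probe sets gave 0.70 to 3.71. Cspg4 and Fbln2 rose by 2.52 and 2.28 (another Cspg4 probe set gave 1.20), and Tnxb fell by 2.55. Fbln2 passed in 13 of 21 settings. Bgn, a proteoglycan that was a marker for this comparison, lies on chromosome X and was left out by the rule. Of 19 integrins and laminins 4 rose and 0 fell. Itga1 was at 5.60, 5.27 and 6.66 and then at 9.45, 8.71 and 8.75, an increase of 3.13 ± 0.52. Itgb6, whose integrin activates latent TGF-β, rose by 3.02 ± 0.41, and Itgb8 and Lamb1 by 2.07 and 1.76. The subunits Itgb1 and Itgb4, common to basal keratinocytes, differed by 0.53 and 0.38 and did not pass.

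Several genes with the largest increases belong to no list. Csrp2, a LIM-domain protein, was at 5.23, 4.43 and 7.21 and then at 9.56, 9.25 and 10.47. Sorbs2, an adaptor of the actin cytoskeleton, was at 5.72, 6.42 and 6.94 and then at 10.68, 9.68 and 10.37. Their increases were 4.14 ± 0.73 and 3.88 ± 0.47, and the rule that named them required ages without overlap. Pm20d1, a secreted enzyme of N-acyl amino acids, was at 5.19, 4.797 and 4.81 and then at 9.09, 8.82 and 9.35. Its increase of 4.16 ± 0.56 differed from non-bulge, where the effect was -1.31, by 5.47 ± 0.79 (adjusted p = 0.00151). Kitl, the ligand of the KIT receptor on melanocytes, rose by 3.56 ± 0.68 from 4.60, 7.19 and 7.78 to 10.10, 10.69 and 9.45. The kinase gene Nek6 rose by 4.03, the glycogen-targeting gene Ppp1r3c by 4.01 and the methyltransferase gene Gnmt by 3.92. Other probe sets gave lower values, down to 1.07 for Nek6 and 1.30 for Ppp1r3c. Igdcc4, St6gal1, Pi15, Atp8a2, Ssh1 and Ism1 rose by 3.81, 3.75, 3.67, 3.60, 3.57 and 3.54.

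Over the 18 arrays, the genes most like Wnt5b were Emp3, Itga1 and Dixdc1, with Pearson correlations of 0.949, 0.946 and 0.944. Those most like Wnt3 were Clca3a1, Exph5 and 4930550C14Rik, with 0.979, 0.974 and 0.973. These are descriptions over arrays that share mice and fractions. Emp3, a membrane protein, was at 4.30, 4.33 and 4.98 and then at 8.43, 7.99 and 8.27 in divided bulge. Exph5 was at 11.92, 12.004 and 11.62 and then at 9.38, 10.21 and 8.77.

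Of 20 basal and non-bulge genes 0 rose and 4 fell, Il33, Ly6d, Il1r2 and Gata3. Il33, an alarmin cytokine of keratinocytes, was at 10.90, 10.76 and 10.99 at PD21 and at 7.54, 7.77 and 6.37 at PD25. The PD21 mice were tightly grouped, and the change was -3.66 ± 0.44 (adjusted p = 1.15e-05). In non-bulge Il33 had means of 11.37 and 11.002 and in undivided bulge of 6.92 and 6.53, and the divided bulge effect differed from these by -3.29 ± 0.62 and -3.27 ± 0.62. Ly6d was at 13.06, 13.05 and 11.95 and then at 10.31, 10.56 and 10.28, and Gata3 fell by 1.40. The most general genes of the list, Krt5, Krt14, Trp63 and Dst, differed by -0.16, -0.29, 0.02 and -0.15.

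Of 28 epidermal differentiation genes 1 rose and 8 fell, with a median of -0.89. Tgm3, a transglutaminase of the cornified envelope, was at 10.34, 10.78 and 9.86 and then at 7.85, 9.06 and 8.23, a change of -1.94 ± 0.42 (adjusted p = 0.00425). Spink5, a protease inhibitor, was at 10.64, 11.29 and 10.91 and then at 9.55, 8.63 and 8.80. Sprr2d fell by 2.43 and passed in 8 of 20 settings. The desmosomal genes Dsg1a and Dsc1 fell by 1.38 and 1.45, and Krt1 and Krt10, keratins of suprabasal cells, differed by -0.72 and -0.76 and did not pass. Calml3 was the gene that rose, by 1.82 ± 0.47. The mean level of the list per array was 10.98 to 11.26 in divided bulge at PD21 and at most 10.68 at PD25, below every PD21 array, and in non-bulge it was 9.94 to 10.86.

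Of 14 isthmus and infundibulum genes 0 rose and 4 fell, among them Krt23, Aldh3a1 and Krt80 with changes of -1.93, -1.78 and -1.31, Krt23 passing in 11 of 21 settings. The list median was -0.58 in divided bulge and -0.71 in undivided bulge, where 0 passed. In divided bulge the list mean was 12.13, 11.98 and 11.09 in PD21 mice 1 to 3. At PD25 it was 10.99 to 11.06, so PD21 mouse 3 lay near the PD25 mice. Of 15 sebaceous gland genes 0 rose and 2 fell, Acsbg1 and Mgst1, the latter passing in 13 of 21 settings. Of 14 hair germ and matrix genes 3 rose and 2 fell. Hoxc13 was at 7.92, 7.17 and 7.88 and then at 10.68, 10.02 and 10.88, and Trps1 was at 9.74, 9.72 and 9.85 and then at 12.60, 12.61 and 12.01. Those groups did not overlap, and the increases were 2.87 ± 0.48 and 2.64 ± 0.42. Sox21 and Cux1 fell by 2.52 and 2.05, with another Cux1 probe set at -0.80. Of 10 hair shaft and inner root sheath genes 0 passed in either direction.

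Of 14 interleukin 1 family and chemokine genes 2 rose and 4 fell. Il1f9 was at 10.13, 8.91 and 9.57 and then at 5.64, 6.12 and 6.68, a change of -3.39 ± 0.55. Il1rn, the receptor antagonist, was at 11.08, 11.04 and 10.96 and then at 8.46, 9.05 and 8.51, and Il1r2, the decoy receptor, fell by 2.09. Cxcl14 and Cxcr4 rose by 1.34 and 1.76. Of 18 interferon response genes 0 rose and 5 fell, with a median of -0.96, the lowest of the 38 lists. Irf1 was at 10.44, 9.52 and 9.59 and then at 8.29, 8.45 and 8.36. Tap1, Psmb8 and Psmb9, of antigen processing, changed by -1.27, -1.66 and -1.17, and a second Psmb8 probe set gave -0.17. Psmb9 passed in 11 and Tap1 in 13 of 21 settings.

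Of 25 immediate early and dissociation genes 1 rose and 5 fell. Fosb was at 11.28, 10.98 and 11.42 and then at 9.11, 8.85 and 6.62. Fos was at 13.91, 13.24 and 13.12 and then at 12.19, 10.32 and 9.51. The ages were apart for both, with changes of -3.03 ± 0.58 (adjusted p = 0.00145) and -2.75 ± 0.51 (adjusted p = 0.00117). In undivided bulge the differences were -1.98 and -1.68 and in non-bulge -0.62 and -0.26, and the difference from either fraction did not pass for Fosb or Fos in the fit without a block. With each animal as a block, the Fos difference from non-bulge of -2.49 ± 0.66 passed (adjusted p = 0.0346), and those of Fosb did not. Atf3, Zfp36 and Dusp1 fell by 2.54, 2.06 and 1.69, Ier3 rose by 1.00, and Egr1 and Junb differed by -0.67 and -0.08. The part of tissue dissociation in these values was not tested.

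**Figure D4:**
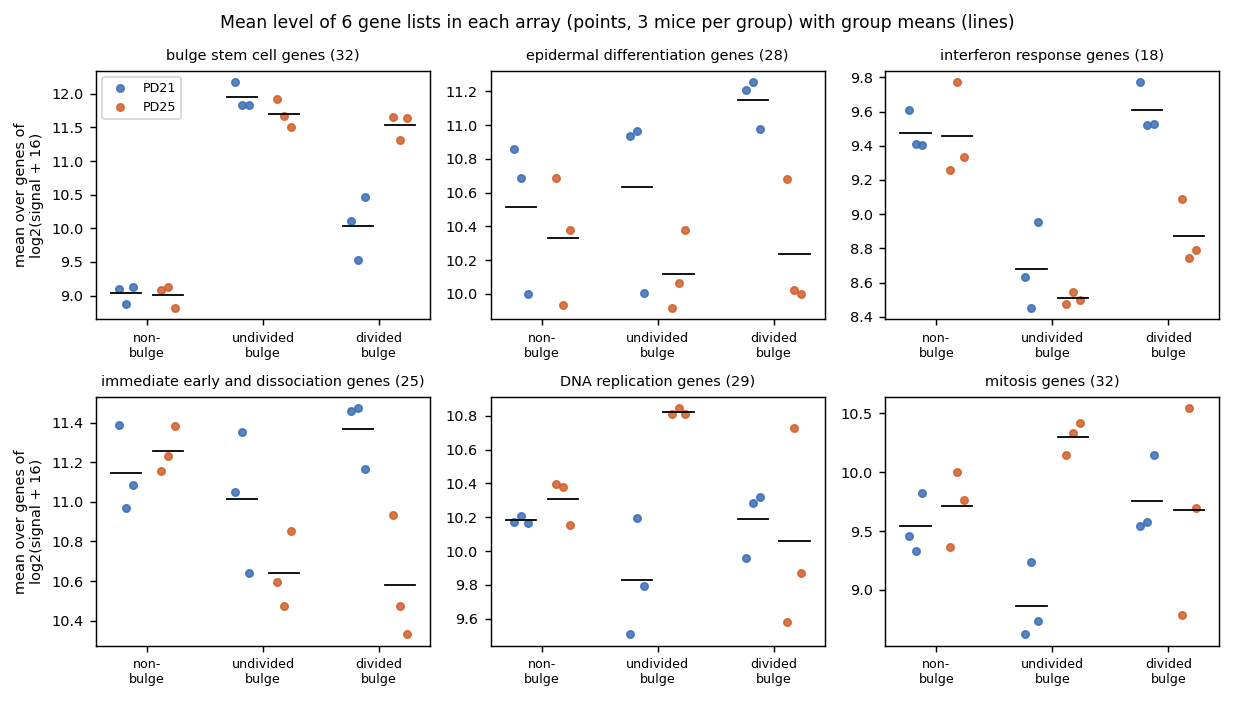
Mean level, as log2(signal + 16), over the tested members of 6 gene lists in each array (points) with group means (lines). The bulge list went from 9.54 to 10.46 at PD21 to 11.32 to 11.66 at PD25 in divided bulge, and the mitosis list went from 8.62 to 9.24 to 10.14 to 10.42 in undivided bulge.

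In divided bulge 0 of 29 DNA replication genes and 0 of 32 mitosis genes passed, beside 7.78% of all autosomal genes. Lists of this size hold few genes at that share, so nothing is read from these counts. The list medians were -0.22 and -0.07. Mki67 was at 13.31, 13.21 and 12.82 at PD21 and at 12.82, 13.30 and 12.74 at PD25, and Top2a was at 10.71, 11.12 and 11.23 and then at 10.14, 11.75 and 10.93. The PD25 mice were spread, since the mitosis list had mean levels of 8.78, 10.54 and 9.70 in mice 1 to 3 against 9.54, 9.58 and 10.14 at PD21. In undivided bulge the same lists had medians of 1.01 and 1.44, and 0 and 1 of their genes passed, beside 0.0625% of all autosomal genes. The gene that passed was Kif11, of the spindle, which rose by 1.73. Spc25, a kinetochore gene on neither list, rose there by 1.74. Eri2 and Elovl6 rose there too, by 1.67 and 1.42, and Cyp4b1 and Fcgbp changed by -1.20 and -2.69. Fcgbp also fell in divided bulge, by 2.91. Cdkn2b, a CDK inhibitor, was the gene of 20 cell cycle inhibitors and G1 genes that passed in divided bulge, with a change of -1.62. It passed in 13 of 21 settings.

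Of 18 FGF and ERK genes 3 rose and 1 fell: Fgf1 by 2.10, its receptor Fgfr1 by 1.96 ± 0.34 and Spred1 by 0.88 upward. Other probe sets gave as little as 0.79 for Fgf1 and 0.11 for Spred1. Fgfbp1, which releases FGFs from the matrix, was at 12.05, 12.62 and 11.99 and then at 9.75, 10.52 and 9.55, a change of -2.28 ± 0.27 (adjusted p = 1.07e-05). In the EGF family 2 of 14 rose, Nrg1 by 2.31 and Egfr by 0.81, and Erbb3 fell by 0.93. Nrg1 passed in 13 of 20 settings, Erbb3 in 13 of 21 and Egfr in 16 of 21. Of 11 IGF axis genes Igfbp5 and Igfbp7 rose by 2.24 and 1.67, and Igfbp3 fell by 1.33. The ages overlapped for Igfbp5, which passed in 10 of 21 settings. A second probe set of Igfbp7 gave -0.03. Of 12 Hedgehog genes Gli3 and Boc rose by 1.26 and 1.11, passing in 16 and 9 of 21 settings. Gli1 and Ptch1, the targets that report pathway activity, differed by -0.14 and -0.32 and did not pass. In the Notch list Rbpj rose by 1.23 and was the single gene of 14 that passed, although another of its probe sets gave 0.27. The counts for the Notch list, for the Wnt effectors (2 of 21) and for the G1 genes (1 of 20) are near the 7.78% of all autosomal genes, so nothing is read from them about these lists. Of 23 axon guidance genes 4 rose and 2 fell, with Ephb1 and Sema3e at 2.82 and 1.95 and Sema3d and Robo1 at -1.73 and -1.61. Sema3d passed in 9 of 21 settings and in none with an array of divided bulge left out.

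The largest decreases outside the lists were spread over transporters, enzymes and receptors. Slc22a4, a carrier of organic cations, was at 12.08, 11.54 and 11.96 and then at 7.62, 9.35 and 7.36, a change of -3.75 ± 0.42 (adjusted p = 5.96e-06). Tnfrsf19, a TNF receptor family member, was at 11.16, 11.04 and 11.35 and then at 7.79, 8.46 and 7.58. The rule that named both genes required ages without overlap. Both effects differed from undivided bulge and from non-bulge. Slc16a9, Cpxm2, Il22ra2, Akr1c18, Ptger4, Ppp2r2c, Defb1 and Ripply3 had changes of -3.67, -3.52, -3.503, -3.44, -3.28, -3.17, -3.14 and -3.12, all of which passed. Lce1a2 fell by 3.29 with widely spread PD25 mice at 7.66, 4.12 and 7.34. Mettl7a1 had the lowest p of the autosomal genes, with 12.68, 12.47 and 12.64 and then 10.31, 9.90 and 9.63, but another of its 3 probe sets gave 0.31.

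**Figure D5:**
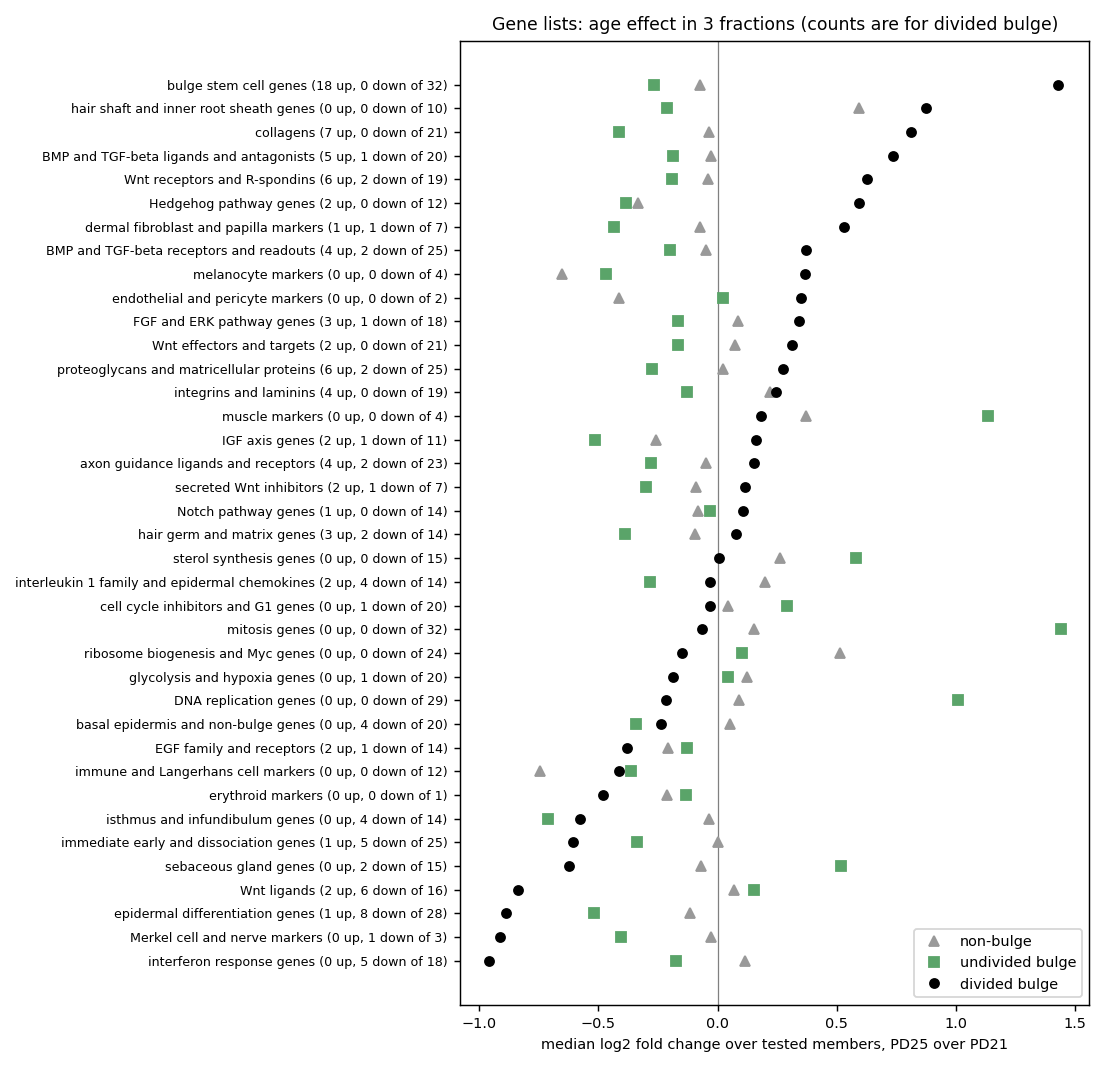
Median log2 fold change, PD25 over PD21, of the tested members of 38 gene lists in divided bulge, undivided bulge and non-bulge, with the number of members that rose and fell in divided bulge. The bulge list at 1.43 is the highest in divided bulge, and the mitosis list at 1.44 the highest in undivided bulge.

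Markers of other cell types that the sort could hold were tested where they passed the filter on dim probe sets, and 3 of them passed the test. Of 16 listed fibroblast and papilla markers 7 were tested. Thy1 fell by 1.45 and Crabp1, which is also on the bulge list, rose by 2.41. The ages overlapped for Crabp1, which passed in 14 of 21 settings, with values down to 0.36. The list mean per divided bulge array was 8.05 to 9.27 at PD21 and 8.80 to 9.37 at PD25. Of 17 immune and Langerhans cell markers 12 were tested and 0 passed, at 6.57 to 7.26 and 6.45 to 6.84. Of 11 melanocyte markers 4 were tested and 0 passed, at 6.56 to 7.46 and 6.91 to 7.55. Of 12 endothelial markers 2 were tested, of 11 muscle markers 4 and of 8 erythroid markers 1, Hba-a2, and 0 passed. Hba-a2 was bright in all groups, between 12.68 and 13.64. Of 3 tested Merkel cell and nerve markers Mbp fell by 2.06, with a second probe set at -0.86. The part of these cells in the results was not tested.

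The ratio of 3′ to 5′ Gapdh probe sets was 9.05, 5.62 and 9.67 in the PD21 divided bulge arrays and 11.6, 5.06 and 3.10 in the PD25 ones. The ages overlapped, and PD25 mouse 1 had the highest ratio and the lowest array weight (0.527) of the 18 arrays. Without it 634 autosomal genes passed.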

How the data were processed

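RNA from sorted cells, 5 ng per array, was amplified and hybridised to 18 mouse arrays, 3 for each of 6 groups. The authors deposited signal intensities made with GCOS, per the submitters' processing notes (version: not given in the sources used here), and every array has a trimmed mean of 500.0 (2% trimmed). Array medians lay between 60.3 and 116.6. Each intensity was used as log2(signal + 16) without further normalization. Of 45101 probe sets, 64 controls, 932 with several symbols and 9160 with none were left out. Probe sets above their array's median in at least 3 arrays were kept, and the set of highest mean stood for a gene.

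A single limma 3.58.1 model (R 4.3.3) with 6 groups was fitted to 11569 genes with a variance trend. P-values were adjusted by Benjamini-Hochberg over all of them, at a threshold of 0.05, and 343 genes on X or Y and 25 with no such chromosome were then set aside. Nothing in the labels says more of the arrays within a group than that they are separate mice, and the fractions of an age share mice. The model treated all arrays as independent, pooled their variance over the 6 groups and drew it toward the trend. Standard errors and p-values therefore do not measure the spread between the divided bulge mice alone.

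Genes were named by rule: the 15 largest non-overlapping increases and decreases that passed and whose higher group mean was above the median gene level of 9.16, up to 4 members that passed per list, a set of fixed genes, the 5 lowest p-values of each difference of age effects, and the 3 genes most like Wnt5b and Wnt3. The comparison, genes and 38 lists were chosen with earlier results of these data known. Genes named beyond the rule were chosen with values seen.

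Mouse numbers do not pair the ages. Correlations were taken over genes between deviations of arrays from their group mean. For same-number divided bulge arrays of the 2 ages they were 0.162, -0.0519 and 0.159. Different-number arrays gave -0.258 to 0.171. Between divided bulge and another fraction of the same mouse the deviations correlated at 0.10 to 0.46. Alternatives covered the constant, filter, normalization, probe set, variance model, weights, blocks, array sets and each array left out. Array sets were found from control probe sets, whose BioB signal was 554.2 to 886.1 in one and 2123.5 to 3173.3 in the other. Promoters are from RefSeq on GRCm38.p6.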

Additional observations from a re-analysis of the deposited data

Results flagged for a closer look

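A closer look is due where the age effect in divided bulge differed from that in another fraction, tested as a difference of effects in limma at an adjusted p of 0.05. Of 53 genes with the largest changes, the fixed genes and those of lowest p, 26 differed from undivided bulge and 29 from non-bulge. Those of lowest p were chosen by this same test, and the largest changes by the divided bulge effect that is part of it. Among the other 78 named genes, mainly list members chosen because they passed in divided bulge, the numbers were 13 and 22. Over all autosomal genes 132 (1.18%) and 182 (1.62%) differed. The counts for named genes are therefore a description. That fit leaves out the shared animals. With each animal as a block 81 of all 131 named genes differed from undivided bulge and 81 from non-bulge, against 39 and 51 without it, and 0 were lost. All values are differences of log2 fold changes, PD25 over PD21.

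Against undivided bulge, the effect was larger in divided bulge by 3.47 for Cd34, 3.94 for Col5a2, 2.75 for Dkk3, 4.75 for Gpc6, 4.16 for Igdcc4, 3.47 for Ism1, 3.80 for Lgr5, 2.47 for Lhx2, 1.73 for Mtus1, 1.85 for Peg3, 2.62 for Phlda1, 3.67 for Pm20d1, 1.97 for Pxdc1, 4.0033 for Scrg1, 2.62 for Sfrp1, 3.78 for Sorbs2, 2.19 for Sox9, 2.95 for Timp2 and 3.43 for Wnt5b. It was lower, with differences of -2.95 for Akr1c18, -3.27 for Il33, -1.76 for Mettl7a1, -3.05 for Ppp2r2c, -3.24 for Slc22a4, -2.11 for Tnfrsf19 and -3.03 for Wnt3.

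Against non-bulge, the effect was larger in divided bulge by 4.13 for Atp8a2, 2.67 for Cd34, 3.93 for Igdcc4, 3.79 for Kitl, 2.55 for Lhx2, 2.29 for Mtus1, 2.53 for Peg3, 2.18 for Phlda1, 4.19 for Pi15, 5.47 for Pm20d1, 3.34 for Ppp1r3c, 2.71 for Scrg1, 2.14 for Sfrp1, 3.97 for Sorbs2, 1.83 for Sox9, 3.56 for St6gal1, 2.58 for Timp2 and 4.36 for Wnt5b. It was lower, with differences of -3.77 for 4930550C14Rik, -2.71 for Bmp4, -3.08 for Cpxm2, -3.21 for Il1f9, -3.29 for Il33, -2.32 for Mettl7a1, -3.51 for Ppp2r2c, -2.99 for Ptger4, -3.64 for Slc22a4, -3.05 for Tnfrsf19 and -3.44 for Wnt3. The causes were not tested.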

How the results depend on the processing

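Counts are autosomal genes that passed, first named by comparison: divided bulge 871, undivided bulge 7, non-bulge 0, divided minus undivided bulge 132 and divided bulge minus non-bulge 182. Divided bulge stayed within 1.5 times of its count except within the array sets, with 570 and 54, and with single arrays left out, where it ranged from 505 (without PD21 mouse 2) to 895 (without PD21 mouse 3), and was 508 without PD21 mouse 1 and 524 without PD25 mouse 3. The other counts moved more. Undivided bulge had 11 with a constant of 64, 4 without a filter, 13 after quantile normalization, 3 with the probe set of highest variance, 1 without a variance trend, 36 with groups compared alone, 74 with array weights, 18 with the mouse as a random block, 37 with the array set as a term, 30 and 2 within the sets, 4 adjusted over autosomal genes and 2 to 21 with an array left out. Non-bulge had 1 with a constant of 64, groups alone, array weights or the array set as a term, 4 within the first set and 0 to 2 with an array left out. Divided minus undivided bulge had 86 and 234 with constants of 1 and 64, 238 after quantile normalization, 77 without a trend, 312 with weights, 477 with the random block, 379 with the set term, 53 and 0 within the sets, 487 with each animal as a block, and 66 (without PD21 divided bulge mouse 2) to 242 (without PD25 divided bulge mouse 2). Divided bulge minus non-bulge had 121 with a constant of 1, 61 without a trend, 306 with weights, 435 with the random block, 340 with the set term, 85 and 0 within the sets, 437 with each animal as a block, and 57 (without PD21 divided bulge mouse 1) to 262 (without PD21 divided bulge mouse 3). With the mouse number as a replicate block the 5 counts were 1168, 83, 1, 370 and 336, although the numbers share only a name across ages. The causes were not tested.

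Of 124 named genes that passed, 21 passed in all 21 settings and 51 failed only within the second array set. Genes that changed sign, none but Igfbp7 having passed, were the following. Krt15 was at 0.23 after quantile normalization, 0.34 with the set term, 0.28 and 0.35 within the sets and from -0.4674 to 0.2088 with an array left out. Krt5 was at 0.12, 0.17, 0.24 and 0.10 under the same 4 settings and from -0.5033 to 0.1259 with an array left out. Krt14 was at 0.0248 with the set term, 0.1974 within the first set and from -0.69 to 0.0292 with an array left out. Itga6 was at 0.0507 with the set term, 0.0305 and 0.0282 within the sets and from -0.2683 to 0.0054 with an array left out. Top2a was at 0.13 with weights, 0.11 within the second set and from -0.4851 to 0.3209 with an array left out. Mki67 was at 0.20 within the second set. Igfbp7 was at -0.0264 with the probe set of highest variance.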
